A study of Homo sapiens with 6 samples.

Results

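Glycolysis, the handling of pyruvate and the tricarboxylic acid (TCA) cycle were described through 48 genes of A549 cells, out of the 58676 genes in the table. The members were taken from a list of gene symbols and not by a rule on measured values, though the list was chosen with earlier results of these data known. It covers the transporters of glucose and lactate, every step from hexokinase to lactate dehydrogenase, 2 of the enzymes that set fructose 2,6-bisphosphate, the mitochondrial pyruvate carrier, pyruvate dehydrogenase and its kinases, the TCA cycle and 3 enzymes beside it. RNA sequencing compared A549 Rec (3 replicates) with A549 MOCK (3 replicates), after 6 days of culture by the labels and at Day 7 by the methods. A549 is an established human lung adenocarcinoma line that does not express recoverin, a calcium sensor of photoreceptors. A549 Rec received human recoverin cDNA and A549 MOCK the empty plasmid, through a retroviral vector and puromycin selection, so that each group is a selected line. Nothing states that the replicates were separate cultures, and p-values then measure only the spread between these samples. All 48 members reached 1 TPM (a unit of reads per gene length, scaled to 1000000 per library) in at least 3 libraries, as did 17408 genes in all. In these cells GAPDH, ENO1, PKM and TPI1 stood highest, PFKP, ENO1, LDHA and PDK4 were the leading isoforms of their families in each library, HK1 stood beside a hexokinase outside the list, HKDC1, at a similar level, and no member passed the test between A549 Rec and A549 MOCK.

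Glycolysis splits glucose into pyruvate in the cytosol, and several of its steps are run by isoforms encoded by separate genes that differ in tissue, affinity and regulation. Pyruvate is either reduced to lactate or carried into mitochondria, where pyruvate dehydrogenase makes acetyl-CoA for the TCA cycle and the pyruvate dehydrogenase kinases switch that enzyme off by phosphorylation. Tumor cells often keep a high flow from glucose to lactate in the presence of oxygen, and the isoforms HK2, LDHA and PDK1 are known as targets of the hypoxia-inducible factors.

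The libraries held 15177371 to 18564988 reads, as recovered from the TPM values. RCVRN, the gene of recoverin, was at 0 TPM in the 3 A549 MOCK libraries and at 322, 338 and 339 TPM in the A549 Rec libraries. For the mitochondrially encoded genes, the share of all TPM was 13.6, 15.7 and 34.5% in the A549 MOCK libraries 1 to 3, while 17.3, 13.3 and 26.9% was found in those of A549 Rec. Replicate 3 thus stood apart in both groups, and results are given with and without it or after rescaling each library to 1000000 without those genes. The epithelial keratins KRT8, KRT18 and KRT7 were at 575 TPM or more in every library, and the epithelial adhesion gene CDH1 was at 109 to 148 TPM. EPCAM, also an epithelial adhesion gene, lay between 0.979 and 2.98 TPM. Among the markers of other cell types, the sum was 3.38 to 5.91 TPM for fibroblasts, 0.449 to 1.49 TPM for leukocytes and 0.483 to 0.912 TPM for endothelial cells, with CD3E at 0. In bulk RNA of this kind, fewer cells of a type and less RNA per cell cannot be told apart.

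Upstream sequences of the genes were searched for ACGTG and GCGTG, the core letters of the element that hypoxia-inducible factors bind, on both strands. The 250 bases before a RefSeq start site held such a core in 43.2% of 35116 windows of the human genome (GRCh38.p14) and in 40 of the 80 windows of the members, which covered 45 of the 48. Windows of LDHA and LDHB, the lactate dehydrogenase pair, and of HK2 and PDK4 are printed from 5′ to 3′ on the strand of the gene. HK2 is the lower hexokinase among the members and PDK4 the highest pyruvate dehydrogenase kinase. Cores are in capitals, and the more upstream start site was used for LDHA and for HK2.
LDHA, chr11:18394313-18394562, plus strand: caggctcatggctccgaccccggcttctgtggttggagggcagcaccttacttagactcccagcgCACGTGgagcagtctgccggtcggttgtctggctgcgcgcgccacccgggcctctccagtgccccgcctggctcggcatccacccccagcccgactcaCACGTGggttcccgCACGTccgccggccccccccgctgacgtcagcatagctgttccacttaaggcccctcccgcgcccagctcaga
LDHB, chr12:21657843-21658092, minus strand: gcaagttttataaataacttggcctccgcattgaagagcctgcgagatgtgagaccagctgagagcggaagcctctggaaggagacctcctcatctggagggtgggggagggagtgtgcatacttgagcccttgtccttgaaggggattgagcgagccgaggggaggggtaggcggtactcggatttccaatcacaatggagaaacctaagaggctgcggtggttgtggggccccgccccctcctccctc
HK2, chr2:74833877-74834126, plus strand: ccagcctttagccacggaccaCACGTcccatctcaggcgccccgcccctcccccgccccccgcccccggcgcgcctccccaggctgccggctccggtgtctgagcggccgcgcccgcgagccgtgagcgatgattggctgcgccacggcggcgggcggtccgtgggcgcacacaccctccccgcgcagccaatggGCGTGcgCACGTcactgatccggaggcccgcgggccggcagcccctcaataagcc
PDK4, chr7:95596517-95596766, minus strand: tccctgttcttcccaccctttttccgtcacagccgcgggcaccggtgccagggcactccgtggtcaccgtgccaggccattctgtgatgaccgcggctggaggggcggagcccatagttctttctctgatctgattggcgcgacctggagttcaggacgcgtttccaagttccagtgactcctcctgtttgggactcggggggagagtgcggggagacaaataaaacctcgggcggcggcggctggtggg
The LDHA window held 3 separate runs of such letters, in 2 of which the cores of both strands overlap, and the HK2 window held 3. None lay in the windows of LDHB and PDK4. A window of PDK1 (of 2) and a window of HK1 (of 7), not printed here, held none either. By the coordinates in the table, LDHA and HK2 begin inside their window and LDHB upstream of it, so these windows do not lie wholly outside the genes. A match is not a measured binding site.

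By level, the members covered a wide range. The mean over the 6 libraries was at least 1000 TPM for 4 members, between 100 and 1000 TPM for 19, between 10 and 100 TPM for 21 and under 10 TPM for 4 (PFKFB4, PDK1, HK2 and ALDOA). Of the 47 pairs of neighbours in this order, the ranges over the 6 libraries overlapped in 43. These ranges include the shift of replicate 3 that most members share, so an overlap does not show that 2 neighbours had the same level. Within libraries, 22 of the 47 pairs kept the same order in all 6, among them ENO1 over PKM, PKM over TPI1 and TPI1 over LDHA, whose ranges overlapped. The ranges did not overlap at GAPDH over ENO1, PGK1 over MDH2, PDK3 over PFKFB4, and PFKFB4 over PDK1. Together the members held 1.19 to 1.73% of the TPM of a library.

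**Figure D1:**
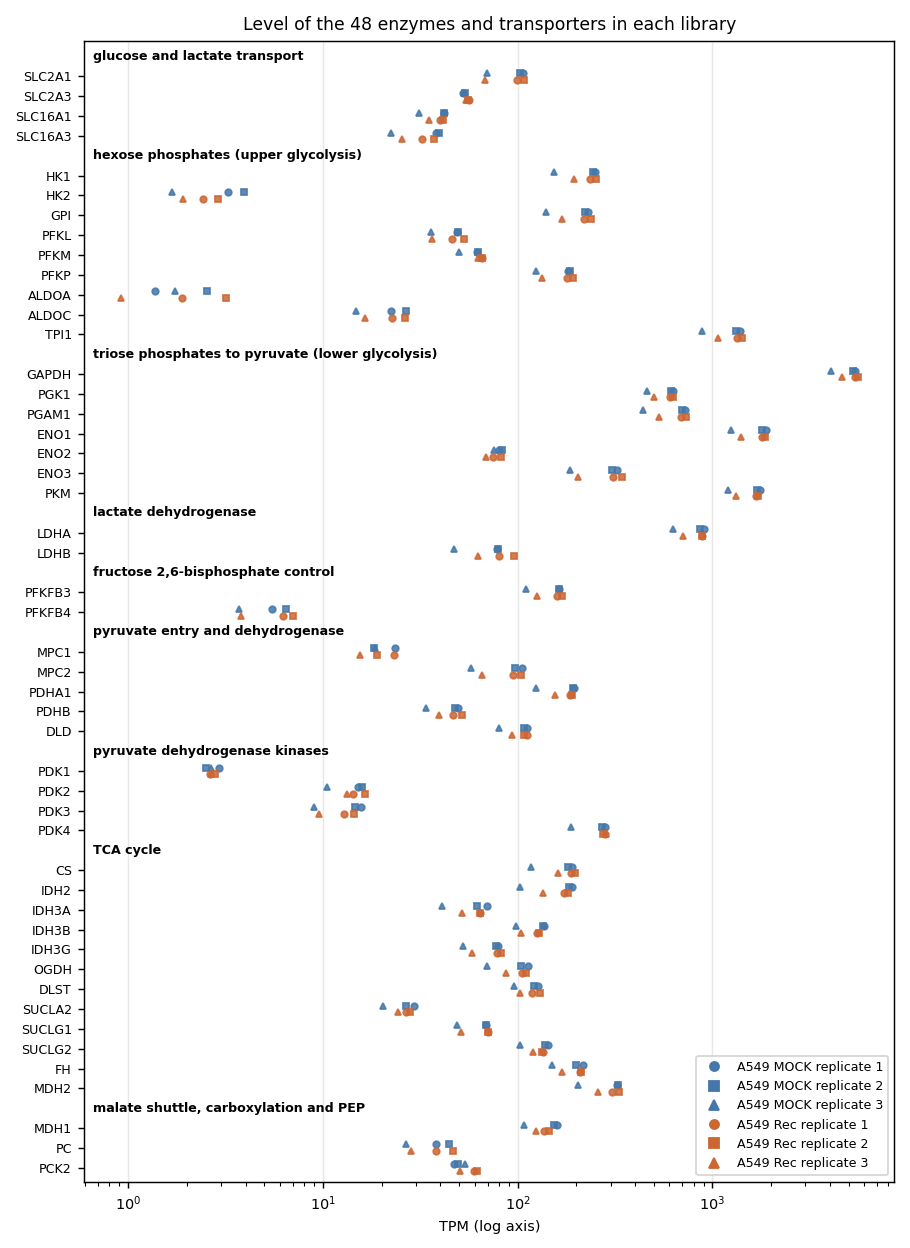
TPM (log axis) of the 48 members, grouped by step, with 1 point for each of the 3 A549 MOCK and 3 A549 Rec libraries. GAPDH stands highest, from 4082 to 5560 TPM, ALDOA, HK2 and PDK1 are lowest, and the replicate 3 libraries (triangles) lie to the left for most members.

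Glucose enters through the facilitative transporters SLC2A1 (GLUT1) and SLC2A3 (GLUT3), and lactate crosses the membrane through SLC16A1 (MCT1) and SLC16A3 (MCT4). SLC2A1 was at 92.8 ± 20.3 TPM in A549 MOCK and 91.6 ± 21.2 TPM in A549 Rec (mean ± SD, n = 3, as for all values given in this form). SLC2A3 was measured at 52.3, 53.6 and 53.0 TPM in A549 MOCK and 55.9, 55.3 and 54.4 TPM in A549 Rec. All 3 A549 Rec values lay above all 3 A549 MOCK values, by a small step, and SLC2A3 was the only member whose groups did not overlap, against 5.16% of the tested genes. Its difference was 0.06 on the log2(TPM + 1) scale (95% interval -0.16 to 0.28), with p = 0.1 in the exact two-sided permutation test, the smallest p that 3 against 3 can give, and an unadjusted p = 0.540 in limma. After rescaling without the mitochondrially encoded genes the SLC2A3 groups overlapped, and those of GAPDH, named here after its values were seen, were the only ones among the members that did not, against 6.61% of the tested genes. SLC16A1 was at 38.3 ± 6.23 TPM in A549 MOCK and 38.7 ± 3.40 TPM in A549 Rec, and SLC16A3 was at 33.4 ± 9.53 TPM in A549 MOCK and 31.6 ± 5.89 TPM in A549 Rec. SLC2A1 made up 55.4 to 67.0% of the sum of SLC2A1 and SLC2A3, and SLC16A1 made up 51.4 to 58.1% of the sum of SLC16A1 and SLC16A3. A further glucose transporter of the same family that is not a member, SLC2A6, was at 64.6 ± 13.0 TPM in A549 MOCK and 61.2 ± 6.97 TPM in A549 Rec (SD, n = 3).

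Hexokinase commits glucose to the pathway. HK1 (ENSG00000156515, GRCh38 chr10:69269984-69401884), the broadly expressed isoform, was measured at 248, 244 and 153 TPM in A549 MOCK and 236, 252 and 195 TPM in A549 Rec. HK2, the insulin- and hypoxia-responsive isoform, was measured at 3.24, 3.92 and 1.67 TPM in A549 MOCK and 2.41, 2.88 and 1.91 TPM in A549 Rec, which rested on 57 to 117 reads per library. HK1 was 62.3- to 102-fold above HK2 in each library and, of this pair, made up 98.7 ± 0.251% (SD, n = 3) of the pair in A549 MOCK, with 99.0 ± 0.0830% found in A549 Rec. HKDC1, a further hexokinase that is not a member and was named after its values were seen, was measured at 206, 197 and 234 TPM in A549 MOCK and 197, 215 and 219 TPM in A549 Rec. HK1 was thus above HKDC1 in replicates 1 and 2 of both groups and below it in replicate 3 of both. Over HK1, HK2, HK3 and HKDC1, the share was 39.4 to 54.8% for HK1 and 44.3 to 60.1% for HKDC1, while HK2 held at most 0.880%. The HK2 difference was -0.18 (95% interval -0.79 to 0.43, unadjusted p = 0.513 in limma), and -0.33 without replicate 3. A549 Rec was lower in 2 of the 3 same-numbered pairs, and the groups overlapped. GPI, which turns glucose 6-phosphate into fructose 6-phosphate, was at 197 ± 50.1 TPM in A549 MOCK and 208 ± 34.8 TPM in A549 Rec.

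Phosphofructokinase, the main control point of glycolysis, is built from muscle (PFKM), liver (PFKL) and platelet (PFKP) subunits. PFKP was measured at 182, 185 and 124 TPM in A549 MOCK and 178, 191 and 134 TPM in A549 Rec. PFKM was measured at 61.8, 62.9 and 50.2 TPM in A549 MOCK and 65.9, 65.5 and 62.2 TPM in A549 Rec. PFKL was measured at 48.6, 49.5 and 35.8 TPM in A549 MOCK and 46.2, 52.9 and 36.4 TPM in A549 Rec. PFKP held 57.5 to 62.3% of the sum in each library, PFKM 21.1 to 26.8% and PFKL 15.7 to 17.1%, so that all 3 subunits were present with PFKP in front. PFKM was higher in A549 Rec in all 3 same-numbered pairs, with a difference of 0.15 (95% interval -0.14 to 0.44, unadjusted p = 0.254 in limma) that was 0.07 without replicate 3. The groups overlapped, since A549 Rec replicate 3 lay between the higher A549 MOCK values.

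Of the enzymes that make and remove fructose 2,6-bisphosphate, the strongest activator of phosphofructokinase, PFKFB3 was at 146 ± 30.7 TPM in A549 MOCK and 151 ± 23.0 TPM in A549 Rec and PFKFB4 at 5.23 ± 1.41 TPM in A549 MOCK and 5.66 ± 1.66 TPM in A549 Rec. PFKFB3 was 24.2- to 33.0-fold above PFKFB4 in each library. PFKFB2, of the same family but not a member, was measured at 27.3, 28.6 and 29.8 TPM in A549 MOCK and 26.6, 27.7 and 26.9 TPM in A549 Rec, above PFKFB4 and below PFKFB3 in every library. PFKFB3 held 76.4 to 83.2% of the sum over the 4 genes of the family.

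Aldolase splits fructose 1,6-bisphosphate into triose phosphates. ALDOA (ENSG00000149925, GRCh38 chr16:30064164-30070457), known as the muscle and general isoform, was the lowest member and was measured at 1.37, 2.54 and 1.73 TPM in A549 MOCK and 1.89, 3.19 and 0.921 TPM in A549 Rec, on 19 to 73 reads per library. ALDOC, the brain isoform, was measured at 22.2, 26.7 and 14.8 TPM in A549 MOCK and 22.6, 26.5 and 16.4 TPM in A549 Rec. ALDOC thus took 89.2 to 94.7% of the pair. AC005726.4 on the opposite strand shares 11.3% of the ALDOC exon bases, at a mean of 43.3 TPM. In GENCODE v44, 54.2% of the exon bases of ALDOA are shared with other genes, 42.8% with AC093512.2 on the same strand and 13.6% with AC093512.1 on the opposite strand. AC093512.1 was listed at 456 to 580 TPM and AC093512.2 at 0.535 to 1.01 TPM. How the counting treated reads in shared bases is not given in the sources used here, so the part of this overlap in the ALDOA level was not tested, and the ALDOA level and the aldolase shares are uncertain. TPI1, which interconverts the triose phosphates, was at 1200.3 ± 277 TPM in A549 MOCK and 1273 ± 182 TPM in A549 Rec, among the 4 highest members.

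**Figure D2:**
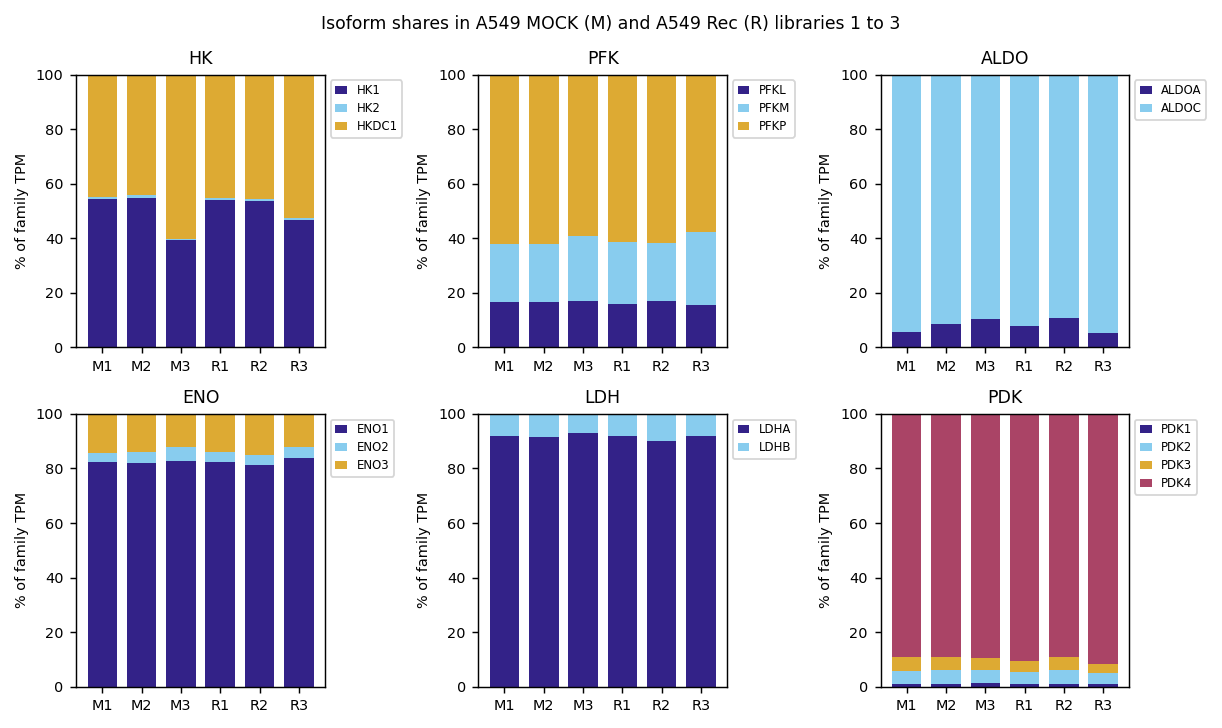
Share of each isoform in the summed TPM of its family (%), stacked to 100, for hexokinase, phosphofructokinase, aldolase, enolase, lactate dehydrogenase and pyruvate dehydrogenase kinase in the A549 MOCK (M1 to M3) and A549 Rec (R1 to R3) libraries. The panels hold the members and further isoforms of the families from the list of other pathway genes, of which only HKDC1 reaches 0.5% in a library. HKDC1 exceeds HK1 in M3 and R3, whereas in the other 5 panels the leading isoform is the same in all 6 libraries, with the lowest leading share, 57.5% for PFKP, in R3.

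From the triose phosphates to pyruvate the levels were the highest of the pathway. GAPDH, which makes NADH and 1,3-bisphosphoglycerate, was at 4928 ± 736 TPM in A549 MOCK and 5179 ± 501 TPM in A549 Rec. A gene on the opposite strand, AC006064.4, shares 17.6% of the GAPDH exon bases and was listed at a mean of 13979 TPM, above GAPDH itself, so the GAPDH level carries the same uncertainty as that of ALDOA. PGK1, the first ATP-yielding step, was at 568 ± 94.2 TPM in A549 MOCK and 577 ± 68.9 TPM in A549 Rec, and PGAM1, which moves the phosphate of 3-phosphoglycerate, was at 619 ± 158 TPM in A549 MOCK and 651 ± 105 TPM in A549 Rec.

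Enolase makes phosphoenolpyruvate. The general isoform ENO1 was measured at 1873, 1788 and 1244 TPM in A549 MOCK and 1800.1, 1855 and 1408 TPM in A549 Rec. ENO3, the muscle isoform, was measured at 322, 304 and 185 TPM in A549 MOCK and 307, 344 and 204 TPM in A549 Rec. ENO2, the neuronal isoform, was measured at 80.1, 83.3 and 75.5 TPM in A549 MOCK and 74.5, 81.7 and 68.4 TPM in A549 Rec. ENO1 held 81.3 to 83.8% of the sum, ENO3 12.1 to 15.1% and ENO2 3.41 to 5.02%. PFN1 on the opposite strand shares 2.59% of the ENO3 exon bases, at a mean of 1331 TPM, so the ENO3 level and the enolase shares are also uncertain. ENO2 was lower in A549 Rec in all 3 same-numbered pairs, the only member of which this held, with overlapping groups and a difference of -0.09 (95% interval -0.36 to 0.18, unadjusted p = 0.449 in limma). PKM, pyruvate kinase, was at 1551 ± 306 TPM in A549 MOCK and 1566 ± 221 TPM in A549 Rec; its M1 and M2 forms arise by splicing and are not told apart in a table of genes.

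Lactate dehydrogenase is a tetramer of LDHA and LDHB subunits, of which LDHA favors the making of lactate and LDHB its use. LDHA (ENSG00000134333, GRCh38 chr11:18394388-18408425) was measured at 903, 859 and 625 TPM in A549 MOCK and 883, 883 and 709 TPM in A549 Rec. LDHB (ENSG00000111716, GRCh38 chr12:21635342-21757857) was measured at 78.6, 79.5 and 47.3 TPM in A549 MOCK and 79.9, 95.7 and 62.5 TPM in A549 Rec. LDHA was 9.22- to 13.2-fold above LDHB and made up 92.2 ± 0.730% (SD, n = 3) of the pair in A549 MOCK, with 91.3 ± 0.919% found in A549 Rec. LDHB had the largest positive difference among the members, 0.23 (95% interval -0.35 to 0.80, unadjusted p = 0.380 in limma), and was higher in A549 Rec in all 3 pairs, although its groups overlapped. With a replicate block the interval was -0.01 to 0.46, with the block on rescaled TPM it was 0.05 to 0.32 (unadjusted p = 0.0171, adjusted p = 0.931 in limma), where LDHB was the only member with an unadjusted p under 0.05, against 5.08% of the genes tested there. Without A549 MOCK replicate 3 the difference of LDHB was -0.015. AC010197.2 shares 33.4% of the LDHB exon bases on the same strand and was at 0.0285 TPM on average.

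Pyruvate enters mitochondria through the carrier of MPC1 and MPC2. MPC1 was at 20.1 ± 2.95 TPM in A549 MOCK and 19.2 ± 3.86 TPM in A549 Rec, and MPC2 was at 86.3 ± 25.4 TPM in A549 MOCK and 87.8 ± 19.7 TPM in A549 Rec. In the pyruvate dehydrogenase complex, the E1 subunits were at 170.2 ± 39.5 TPM in A549 MOCK and 177 ± 18.8 TPM in A549 Rec for PDHA1 and at 43.6 ± 8.48 TPM in A549 MOCK and 45.9 ± 6.36 TPM in A549 Rec for PDHB. DLD, the E3 subunit shared with the oxoglutarate dehydrogenase complex, was at 99.8 ± 17.2 TPM in A549 MOCK and 105 ± 9.76 TPM in A549 Rec. MPC1 was well under MPC2, and PDHB under PDHA1, in every library. AC135507.1 on the opposite strand shares 7.63% of the PDHB exon bases, at a mean of 77.3 TPM. Also on the opposite strand, DCAF6 shares 21.8% of the MPC2 exon bases (mean 50.7 TPM) and MAP3K15 19.3% of those of PDHA1 (15.3 TPM). LAMB1 shares 5.88% of those of DLD (212 TPM). The levels of PDHB, MPC2, PDHA1 and DLD are thus uncertain. LDHA was 4.48- to 5.02-fold above PDHA1 within a library, with a mean of 4.72 ± 0.274 for the A549 MOCK libraries and 4.66 ± 0.0914 for those of A549 Rec (SD, n = 3), and the groups overlapped.

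The kinases that switch off pyruvate dehydrogenase were dominated by PDK4, the isoform known to respond to fasting and to nuclear receptors. PDK4 (ENSG00000004799, GRCh38 chr7:95583499-95596491) was measured at 280.0, 269.6 and 188 TPM in A549 MOCK and 282, 274 and 285 TPM in A549 Rec. A549 MOCK replicate 3 stood below the other 5 libraries, which lay close together before rescaling. Replicate 3 minus the mean of replicates 1 and 2, in log2, gave -0.54 for PDK4 in A549 MOCK, near the member median of -0.55. For A549 Rec it gave 0.035, against a member median of -0.32. On rescaled TPM the PDK4 values were -0.16 and 0.25 in the same order, beside member medians of -0.17 and -0.11. By this measure A549 Rec replicate 3, rather than A549 MOCK replicate 3, departed from the members as a whole. PDK4 was higher in A549 Rec in all 3 pairs and differed by 0.21 (95% interval -0.20 to 0.62, unadjusted p = 0.269 in limma), but by 0.02 without replicate 3. PDK2 was measured at 15.2, 15.8 and 10.5 TPM in A549 MOCK and 14.2, 16.4 and 13.2 TPM in A549 Rec. PDK3 was measured at 15.6, 14.6 and 8.96 TPM in A549 MOCK and 12.9, 14.5 and 9.54 TPM in A549 Rec. PDK1, the hypoxia-responsive isoform, was measured at 2.93, 2.51 and 2.67 TPM in A549 MOCK and 2.62, 2.79 and 2.67 TPM in A549 Rec. PDK4 made up 89.0 to 91.8% of the 4 kinases, PDK2 4.26 to 5.34%, PDK3 3.08 to 4.97% and PDK1 0.830 to 1.27%. PDK2 and PDK3 did not differ in level beyond their spread, and SAMD14 shares 38.6% of the PDK2 exon bases on the opposite strand, at 3.23 to 6.15 TPM.

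In the TCA cycle, the 12 members summed to 1470.1 ± 319.7 TPM in A549 MOCK and 1528 ± 184 TPM in A549 Rec. CS, which joins acetyl-CoA to oxaloacetate, was measured at 190.3, 181 and 116 TPM in A549 MOCK and 187, 198 and 160.4 TPM in A549 Rec. Its difference was 0.19 (95% interval -0.30 to 0.68, unadjusted p = 0.397 in limma) with overlapping groups, and 0.05 without replicate 3. IDH2, the NADP-dependent isocitrate dehydrogenase of mitochondria, was at 159 ± 48.6 TPM in A549 MOCK and 163 ± 24.8 TPM in A549 Rec. The subunits of the NAD-dependent isocitrate dehydrogenase were unequal, with IDH3B above IDH3G and IDH3A. IDH3A was at 57.4 ± 14.8 TPM in A549 MOCK and 59.7 ± 7.10 TPM in A549 Rec, IDH3B at 123 ± 21.4 TPM in A549 MOCK and 119 ± 13.3 TPM in A549 Rec, and IDH3G at 69.8 ± 14.9 TPM in A549 MOCK and 72.6 ± 12.8 TPM in A549 Rec. Of the IDH3A exon bases, 38.2% are shared with ACSBG1 on the opposite strand, at a mean of 24.9 TPM. Of those of IDH3G, 9.89% are shared with SSR4 on the opposite strand, at a mean of 77.7 TPM, so the levels of both subunits are uncertain. In the oxoglutarate dehydrogenase complex, OGDH was at 95.3 ± 22.6 TPM in A549 MOCK and 101 ± 12.6 TPM in A549 Rec and DLST at 115 ± 16.9 TPM in A549 MOCK and 117 ± 13.8 TPM in A549 Rec.

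Succinyl-CoA ligase joins the common subunit SUCLG1 to an ADP-specific (SUCLA2) or a GDP-specific (SUCLG2) partner. SUCLG1 was at 61.9 ± 11.2 TPM in A549 MOCK and 64.1 ± 11.0 TPM in A549 Rec. SUCLG2 was at 128 ± 21.8 TPM in A549 MOCK and 129 ± 8.34 TPM in A549 Rec and SUCLA2 at 25.5 ± 4.55 TPM in A549 MOCK and 26.2 ± 1.91 TPM in A549 Rec. The GDP-type partner was 4.78- to 5.18-fold above the ADP-type one within a library. FH, fumarase, was at 189 ± 34.8 TPM in A549 MOCK and 196 ± 24.3 TPM in A549 Rec. MDH2, the mitochondrial malate dehydrogenase, was the highest of the cycle at 285 ± 69.4 TPM in A549 MOCK and 297 ± 36.5 TPM in A549 Rec.

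Beside the cycle, the cytosolic malate dehydrogenase MDH1 was at 139.5 ± 27.9 TPM in A549 MOCK and 135 ± 9.73 TPM in A549 Rec, and PC, which carboxylates pyruvate to oxaloacetate, was at 36.4 ± 9.03 TPM in A549 MOCK and 37.6 ± 9.13 TPM in A549 Rec. The ratio of MDH2 to MDH1 was 2.03 ± 0.120 for the A549 MOCK libraries and 2.20 ± 0.115 for those of A549 Rec (SD, n = 3), with overlapping ranges. It was higher in A549 Rec in all 3 same-numbered pairs, by 0.193, 0.150 and 0.166, a pattern that was noticed after its values were seen and was not tested. PCK2, the mitochondrial enzyme that makes phosphoenolpyruvate from oxaloacetate, was measured at 47.2, 49.1 and 53.7 TPM in A549 MOCK and 59.4, 61.4 and 50.6 TPM in A549 Rec. PCK2 had the smallest unadjusted p of the members, with a difference of 0.19 (95% interval -0.09 to 0.47, unadjusted p = 0.159 in limma). Replicates 1 and 2 of A549 Rec lay above all A549 MOCK libraries and replicate 3 lay within them. Without replicate 3 the PCK2 difference was 0.32 (95% interval 0.17 to 0.47, unadjusted p = 0.00260, adjusted p = 0.658 in limma).

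Across the comparison of A549 Rec with A549 MOCK, no member was a differentially expressed gene. The call required a Benjamini-Hochberg adjusted p under 0.05 in limma and a fold change of at least 2, and 0.00574% of the 17408 tested genes, that is RCVRN alone, met it. With DESeq2 on read counts the study listed further genes at these thresholds, so this count belongs to limma on TPM. RCVRN differed by 8.38 on the log2(TPM + 1) scale. The adjusted p was 0.9997 for each of the 48 members in limma. No member had an unadjusted p under 0.05 either, against 2.06% of the tested genes, nor with the replicate number as a block, against 4.11%. Without replicate 3 there were 2 such members, against 5.67% of the tested genes, PCK2 and MDH1, of which MDH1 was named after its values were seen and had a difference of -0.15 (unadjusted p = 0.0428, adjusted p = 0.880 in limma).

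The 95% intervals give the size of change that these libraries leave possible. For all 48 members the interval lay within a fold change of 2 in either direction, as it did for 88.5% of the tested genes, and under the alternatives this held for 46 to 48 members. The median half-width of the interval was 0.48 on the log2 scale, and 0.24 with the replicate block. The median difference of the members was 0.06, beside 0.02 for all tested genes. Differences were above 0 for 39 of the 48 members against 56.6% of the tested genes, and for 31 members against 42.5% of the genes on rescaled TPM. This count was 26 without replicate 3, 4 without A549 MOCK replicate 3 alone and 21 without A549 Rec replicate 2 alone, so the direction of the members as a whole depends on the scaling and on single libraries. In the same-numbered pairs, 7 members were higher in A549 Rec in all 3 pairs (SLC2A3, PFKM, LDHB, PFKFB4, DLD, PDK4 and SUCLG1), against 13.1% of the tested genes.

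**Figure D3:**
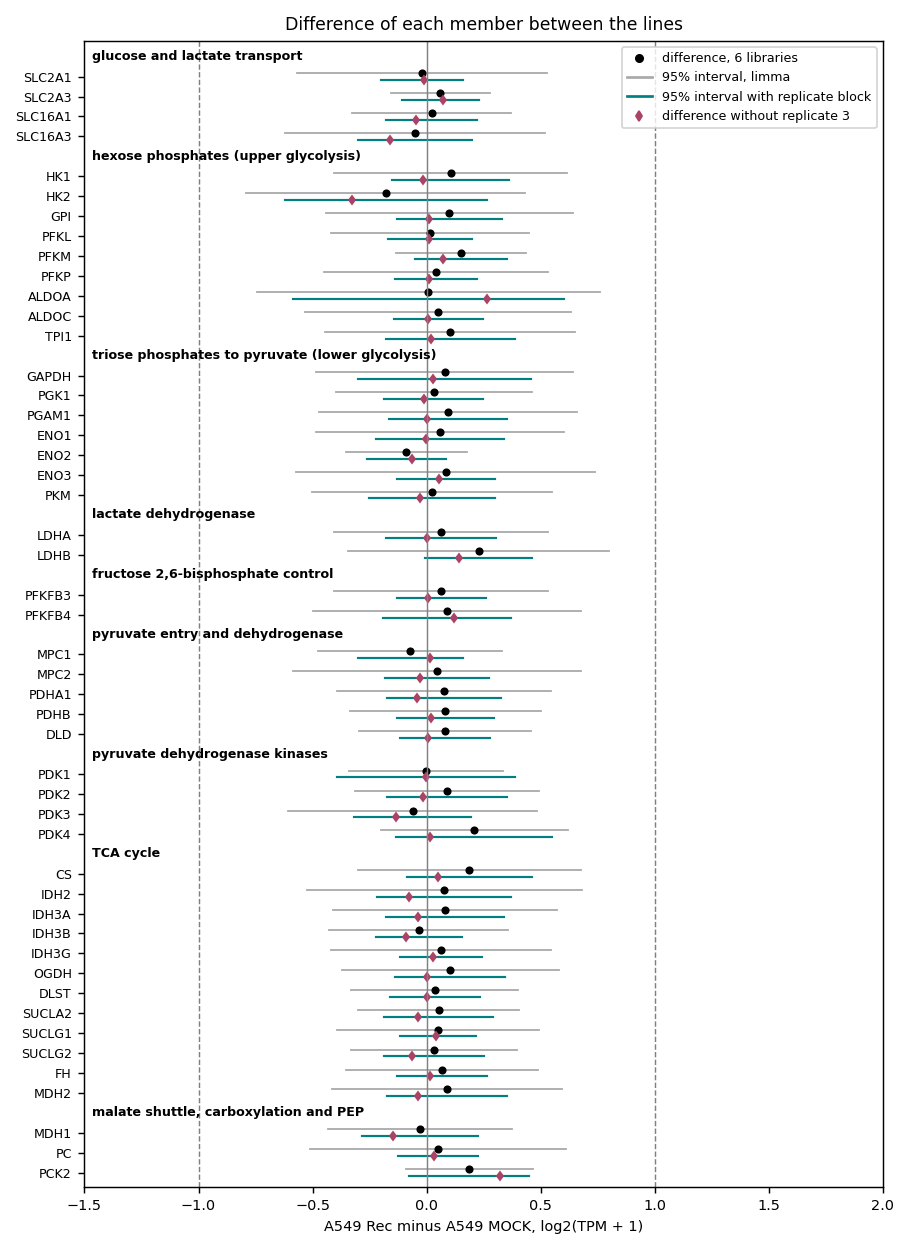
Difference of each member between A549 Rec and A549 MOCK on the log2(TPM + 1) scale (black points), with the 95% interval from limma without (grey) and with (green) the replicate block, and the difference without replicate 3 (diamonds). All 48 grey intervals lie between the dashed lines at a fold change of 2 of TPM + 1, and all of them include 0.

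The share of the leading isoform among the members of a family was also compared between the lines. The difference in share, A549 Rec minus A549 MOCK, was 0.28 percentage points for HK1 of the HK1 and HK2 pair, -0.96 for PFKP, 0.39 for ALDOC, 0.13 for ENO1, -0.89 for LDHA and 1.15 for PDK4. It was -1.32 points for SLC2A1, 1.30 for SLC16A1 and -0.11 for PFKFB3 of the PFKFB3 and PFKFB4 pair. Over these 9 families the exact two-sided permutation test gave p from 0.2 to 0.9, and 0.9 for each after adjustment over the 9. The groups overlapped in all 9. The design cannot give a p below 0.1. A share within a library is free of the scaling of that library.

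**Figure D4:**
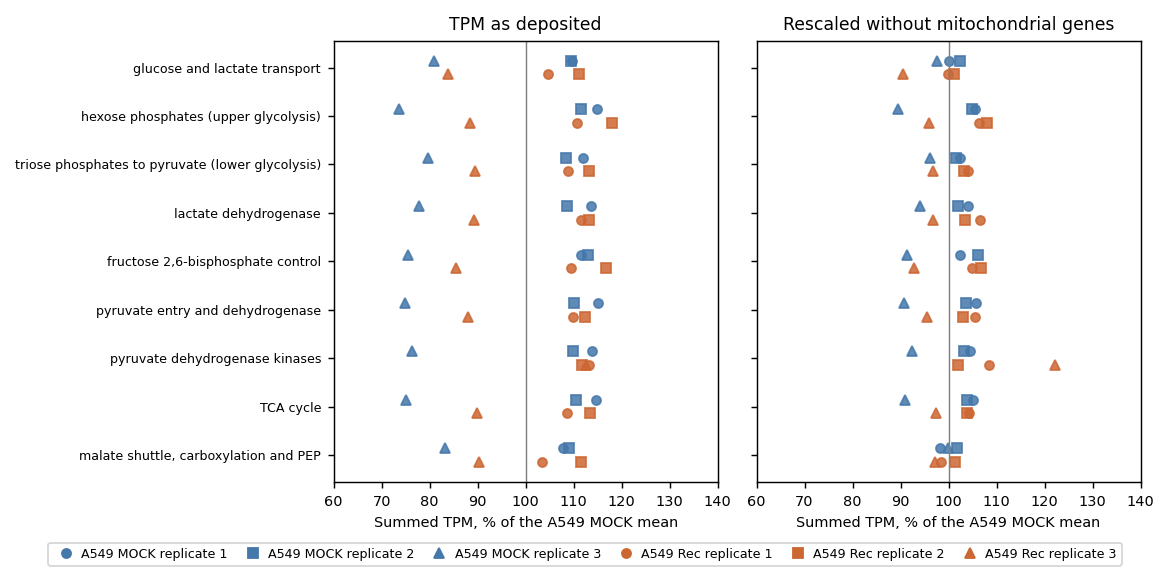
Summed TPM of each step group in each library, as percent of the A549 MOCK mean of that group, for the deposited TPM (left) and after rescaling without the mitochondrially encoded genes (right). Replicate 3 (triangles) lies below replicates 1 and 2 in all groups on the left except for the kinases in A549 Rec, and on the right the kinases in A549 Rec replicate 3 lie highest, at 424 TPM.

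The TPM was also summed over the members of each step, with no test of the sums. The steps from triose phosphates to pyruvate summed to 9651 ± 1713 TPM in A549 MOCK and 10021 ± 1218 TPM in A549 Rec, and upper glycolysis to 1906 ± 435 TPM in A549 MOCK and 2012 ± 294 TPM in A549 Rec. Lactate dehydrogenase summed to 864 ± 167 TPM in A549 MOCK and 904 ± 115 TPM in A549 Rec, and pyruvate entry and dehydrogenase to 420.0 ± 92.1 TPM in A549 MOCK and 434 ± 56.6 TPM in A549 Rec. The transporters summed to 217 ± 36.0 TPM in A549 MOCK and 217 ± 31.0 TPM in A549 Rec. Glycolysis with lactate dehydrogenase exceeded the TCA cycle 8.49 ± 0.311 times over the A549 MOCK libraries and 8.46 ± 0.0531 times over those of A549 Rec (SD, n = 3). The pyruvate dehydrogenase kinases had the largest difference among the sums, at 276 ± 56.7 TPM in A549 MOCK and 309.8 ± 2.11 TPM in A549 Rec. That is 0.17 as a log2 ratio of the means, and 0.01 without replicate 3. On rescaled TPM, A549 Rec replicate 3 was the highest library for the kinases at 424 TPM, where the other 5 lay between 321 and 377 TPM.

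Within each group, the members were spread mainly by replicate 3. It was the lowest of its group for 43 members in A549 MOCK and 46 in A549 Rec, against 64.8% and 61.9% of the tested genes. After rescaling without the mitochondrially encoded genes, it was the lowest for 40 and 38 members, against 30.7% and 32.1%. The median of replicate 3 minus the mean of replicates 1 and 2 over the members, on the log2 scale, came to -0.55 for A549 MOCK and -0.32 for A549 Rec. On rescaled TPM these medians were -0.17 and -0.11, beside 0.10 and 0.04 for all tested genes. The larger mitochondrial share moved with these values, and its part in the lower levels beyond the rescaling was not tested. On rescaled TPM, 4 members were above 0 by this measure in both groups, SLC2A3 at 0.38 and 0.18, PDK1 at 0.28 and 0.15, ENO2 at 0.27 and 0.02, and PFKM at 0.07 and 0.13.

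Other genes of the same pathways were taken from a list of 57, which holds further isoforms, subunits, phosphatases and transporters. Of these, 43 were tested and none was called, against 0.00574% of all tested genes. None had an unadjusted p under 0.05 in limma, against 2.06%. Differences were above 0 for 24 of the 43, against 56.6% of all tested genes, with a median of 0.03 beside 0.02. PDP1, the phosphatase that switches pyruvate dehydrogenase on again, was measured at 13.7, 13.6 and 15.3 TPM in A549 MOCK and 12.6, 12.6 and 11.3 TPM in A549 Rec. All 3 A549 Rec values lay below all 3 A549 MOCK values, where 5.16% of all tested genes had groups that did not overlap. The PDP1 difference was -0.20 (95% interval -0.45 to 0.04, unadjusted p = 0.0941 in limma, p = 0.1 in the exact permutation test). FBP2, the muscle fructose 1,6-bisphosphatase, was measured at 0.913, 1.87 and 0.683 TPM in A549 MOCK and 1.53, 1.44 and 2.33 TPM in A549 Rec. SLC2A8, a glucose transporter of internal membranes, was measured at 12.6, 12.7 and 10.7 TPM in A549 MOCK and 9.63, 11.2 and 11.1 TPM in A549 Rec. The groups of FBP2 and SLC2A8 overlapped, with differences of 0.39 (unadjusted p = 0.196 in limma) and -0.16 (unadjusted p = 0.220 in limma). With the replicate block, 1 gene of the list had an unadjusted p under 0.05, against 4.11% of all tested genes. It was LDHD, a D-lactate dehydrogenase of mitochondria named after its values were seen, with a difference of 0.28 (95% interval 0.05 to 0.50, unadjusted p = 0.0237, adjusted p = 0.998 in limma). With the block on rescaled TPM there were 3 such genes of the list, LDHD among them, against 5.08% of the genes tested there.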

How the data were processed

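RNA sequencing of 3 A549 Rec and 3 A549 MOCK libraries was used, with groups and replicate numbers taken from the labels. The submitters' processing notes name FastQC 0.11.7, Trimmomatic 0.38, HISAT2 2.1.0 and featureCounts 1.6.3, and a mouse build beside the GRCh38 of the methods; the deposited gene coordinates are human. The authors deposited TPM per gene, mitochondrial genes included, with no further normalization. Strand setting, annotation release and the treatment of reads in shared bases are not given in the sources used here. Depth was recovered as whole reads from the steps of the TPM values, to within 0.01 of a whole read, for 29891 of 29900 detected genes (15177371 to 18564988 reads per library), and covers counting only, as PCR copies were not told apart.

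The 48 members, their step groups and the lists of other pathway genes and markers were chosen with earlier results of these data known. A gene of the other list is not reported here. Every member was named with its level. Library values were given for the HK, PFK, ALDO, ENO, LDH and PDK isoforms, for the 8 members with the smallest unadjusted p and for the 3 such genes of the other list. Genes with at least 1 TPM in 3 libraries were tested with limma 3.58.1 (lmFit, eBayes with trend) in R 4.3.3 on log2(TPM + 1), a scale that understates changes of low genes and adjusted by Benjamini-Hochberg over all 17408 tested genes. The adjusted p under 0.05 and the fold change of at least 2 were taken from the study's methods, whose further q threshold of 0.08 was run only as an alternative threshold on the adjusted p. The script was tested on simulated data. Isoform shares were compared by exact two-sided permutation tests. Exon overlaps came from GENCODE v44 and upstream sequences from RefSeq (GRCh38.p14). Overlaps are given for some members only, and further members share exon bases with other genes. Alternatives were a pseudocount of 0.1, other filters, quantile normalization, rescaling without mitochondrially encoded genes, no trend, the replicate block and leaving out libraries. Leaving out replicate 3 for shares and sums was added after seeing the data.

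The labels number the replicates alike in both groups. The deviation of a library from its group mean correlated with that of its namesake at 0.11, 0.16 and 0.34 over the tested genes for replicates 1, 2 and 3. Libraries of different numbers were not compared in this way, and replicate 3 stood apart in both groups, so these values cannot show a pairing. The same-numbered pairs and the replicate block thus rest on the numbers of the labels alone. No source says what a number stands for, and the titles of the replicate 3 libraries carry none.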

Additional observations from a re-analysis of the deposited data

How the results depend on the processing

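No member was called under any alternative run, the replicate block included, which also left the count over all tested genes at 1. That count was 6 without a filter on low values, 6 without trend, and 1 to 2 when libraries were left out; the cause was not tested. The number of members with an unadjusted p under 0.05 in limma was 0 of 48, against 2.06% of the tested genes. This number became 1 with the replicate block on rescaled TPM, against 5.08% of the genes tested there. It was 0 to 2 when libraries were left out, which is 2 of 48 without replicate 3, where 5.67% of the tested genes had one. Members with a difference above 0, 39 of 48, ranged from 4 to 46 and their median difference from -0.12 to 0.18 when libraries were left out. When libraries were left out, the difference ranged from -0.015 to 0.39 for LDHB, from -0.036 to 0.32 for CS and from -0.44 to 0.00336 for HK2. The difference in share ranged from -1.98 to 0.40 points for PFKP, -1.99 to 1.80 for ALDOC, -0.49 to 0.74 for ENO1, -4.53 to 1.90 for SLC2A1, -0.0189 to 3.37 for SLC16A1 and -0.42 to 0.0946 for PFKFB3. With the same numbers in both groups, a replicate block cannot change a difference in mean share. It could change the spread and the p of a share, which was not tested. The differences of PCK2, PFKM, PDK4, ENO2, SLC2A3, PDP1, FBP2 and SLC2A8 and the shares of HK1, LDHA and PDK4 among the members kept their sign under the alternatives run. The signs of the remaining members follow the range from 4 to 46. For each summed step, no alternative moved the log2 ratio of the means by more than 1 SD between replicates. Depth limits ALDOA and HK2, which rest on few reads.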
